A study of Mus musculus with 16 samples.

Results

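The genes described here are 10 interferon gamma-induced GTPases of the mouse, chosen by symbol but with earlier results of these data known. They are the guanylate-binding protein genes Gbp2, Gbp3, Gbp4, Gbp5 and Gbp7 and the immunity-related GTPase genes Igtp, Irgm1, Irgm2, Iigp1 and Ifi47. All 10 were among the 24028 genes of the count table, and all 10 passed the filter on low counts that left 17414 genes for testing. They are set beside Ifng, the gene of interferon gamma itself, in the same libraries.

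RNA came from CD8 T cells of TS/A tumours, a mammary adenocarcinoma line implanted orthotopically in BALB/c mice. Mice received entinostat, which inhibits class I histone deacetylases, at 20 mg/kg every day from day 7 after tumour injection, or vehicle on the same schedule. The 4 groups were entinostat at day 10, vehicle at day 10, entinostat at day 17 and vehicle at day 17, with 4 libraries each, so that dosing had lasted 3 or 10 days. Every group carried the same tumour line, and the sort kept live CD45.2+ CD8+ CD4- cells. How many animals stood behind a library, and whether animals were pooled, is not given in the labels.

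Interferon gamma is secreted by activated T cells and natural killer cells and acts through its receptor, Ifngr1 with Ifngr2, and the kinases Jak1 and Jak2. The signal reaches gamma-activated sites (GAS) in target promoters, and Irf1, itself induced by interferon gamma, binds interferon-stimulated response elements (ISRE). The guanylate-binding proteins (GBPs) and immunity-related GTPases (IRGs) are among the most strongly induced products. They are best known from infected macrophages, where they coat and break pathogen vacuoles, but T cells that sense interferon gamma also express them.

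Promoter sequence was searched for both elements, because the comparison between the cytokine gene and these genes turns on that response. RefSeq promoter windows of build GRCm38.p6, from 250 bases before to 50 bases after a transcript start, were given for 8 of the 10 genes; Gbp4 and Iigp1 had none in the table used here. ISRE was searched as GAAANNGAAA and GAS as TTCNNNGAA, on both strands. The 120 bases before the start are printed for 5 genes, in lower case with matches in capitals, to show how differently the elements are combined in genes that were measured together. Irgm1 is at chr11:48871421-48871540 (minus strand), Igtp at chr11:58199436-58199555, Irgm2 at chr11:58214857-58214976, Gbp2 at chr3:142620543-142620662 and Gbp7 at chr3:142530216-142530335 (plus strand for these 4).
Irgm1: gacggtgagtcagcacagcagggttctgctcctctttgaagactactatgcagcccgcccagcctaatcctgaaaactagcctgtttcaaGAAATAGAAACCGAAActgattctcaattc
Igtp: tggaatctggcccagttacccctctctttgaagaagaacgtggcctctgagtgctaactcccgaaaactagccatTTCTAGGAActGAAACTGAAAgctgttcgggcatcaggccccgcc
Irgm2: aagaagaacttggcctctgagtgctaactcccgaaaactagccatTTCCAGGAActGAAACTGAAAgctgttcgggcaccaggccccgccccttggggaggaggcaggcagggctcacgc
Gbp2: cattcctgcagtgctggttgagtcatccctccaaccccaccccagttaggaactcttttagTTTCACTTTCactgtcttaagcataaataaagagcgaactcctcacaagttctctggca
Gbp7: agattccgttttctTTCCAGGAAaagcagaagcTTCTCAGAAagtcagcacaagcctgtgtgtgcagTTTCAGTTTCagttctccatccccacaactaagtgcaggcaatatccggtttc

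In Irgm1, 2 overlapping ISRE matches end 15 bases before the start and no GAS match was found in the window. Igtp and Irgm2, which lie next to each other on chromosome 11, each had a GAS match followed by an ISRE match. The GAS match read TTCTAGGAA in Igtp and TTCCAGGAA in Irgm2. Their windows also share an identical run of 55 bases, which lies outside these matches. Gbp7 had 2 GAS matches and 1 ISRE match, and Gbp2 had 1 ISRE match. Of the 8 genes with a window, 7 had an ISRE match and 4 (Gbp5, Gbp7, Igtp and Irgm2) a GAS match; Ifi47 had neither in its window. Among 32851 promoter windows of the same length, 3.44% held an ISRE match, 8.30% a GAS match and 11.3% either. A match is a string of letters and not a measured binding site.

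The 16 libraries held 554593 to 6975904 counts, with the lowest total in entinostat day 17 replicate 3. Highly expressed genes did not scale with these totals, and Actb counts were 1618 in the shallowest library but 2415 to 3265 elsewhere. The summed level of 7 T cell markers was 2016 to 2535 CPM (counts scaled for library size by TMM) with entinostat and 2352 to 2667 with vehicle at day 10, and 2137 to 3600 with entinostat and 1885 to 2301 with vehicle at day 17. None of these 7 markers was called, meaning an adjusted p under 0.05, with drug at either day. Markers of plasmacytoid dendritic cells, which are not T cells, were also present. Their 10 genes summed to 510 to 940 CPM with entinostat and 1316 to 2637 with vehicle at day 10, and to 596 to 741 with entinostat and 2250 to 2895 with vehicle at day 17. At each day 9 of these 10 were called lower with entinostat, and none was at 0 in every library of a group; their part in the results below was not tested. In a bulk sample, fewer cells of a type and less RNA per cell cannot be told apart.

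In the mean over 16 libraries, and per kilobase of annotated exon, Ifng stood highest at 137 CPM per kb, followed by Igtp at 109 and Ifi47 at 90.6. Gbp2 followed at 66.6, Gbp4 at 62.9, Gbp7 at 56.6, Gbp3 at 41.9, Irgm1 at 31.7 and Irgm2 at 25.9 CPM per kb. Iigp1 at 9.12 and Gbp5 at 8.35 CPM per kb were the lowest. The top of this order did not hold in every group: in vehicle libraries at day 17 Ifng stood at 73.5 ± 9.38 CPM per kb, below Ifi47 (87.1 ± 4.62) and Igtp (84.1 ± 7.81). Neighbours in this order were often not separable: among vehicle libraries at day 10, mean ± SD overlapped between Igtp (120 ± 17.7 CPM per kb) and Ifi47 (112 ± 10.7), and between Gbp7 (70.0 ± 14.3) and Gbp4 (69.9 ± 6.97). It overlapped likewise between Gbp5 (8.71 ± 1.85) and Iigp1 (8.08 ± 1.55), and a wide gap set these 2 below Irgm2 (33.3 ± 6.64; SD, n = 4 for each). Lengths come from an annotation that may differ from the one used for counting, so these levels are approximate.

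The GBP genes lie in clusters, Gbp2, Gbp3, Gbp5 and Gbp7 on chromosome 3 and Gbp4 on chromosome 5. Igtp, Irgm1, Irgm2 and Ifi47 lie on chromosome 11 and Iigp1 on chromosome 18. Paralogs share sequence, and 12.8% of the 50-base words of Gbp4 and of Gbp7 also occur in other genes, as do 12.3% of those of Igtp, which all lie in Irgm2, and 0.00% of those of Irgm1. Ifng, set beside them here, had 13.5% of its 50-base words in another gene, Gm49751. Counts of Gbp4, Gbp7, Igtp and Ifng are uncertain to that extent, since the handling of shared reads is not given in the sources used here. For Ifng this also bears on the ratios to its counts given below. The libraries do not mark strand, and Gbp2, Gbp3 and Ifi47 each overlap another annotated gene (Mir6381, Gm40158 and Gm12188) whose reads cannot be separated.

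**Figure D1:**
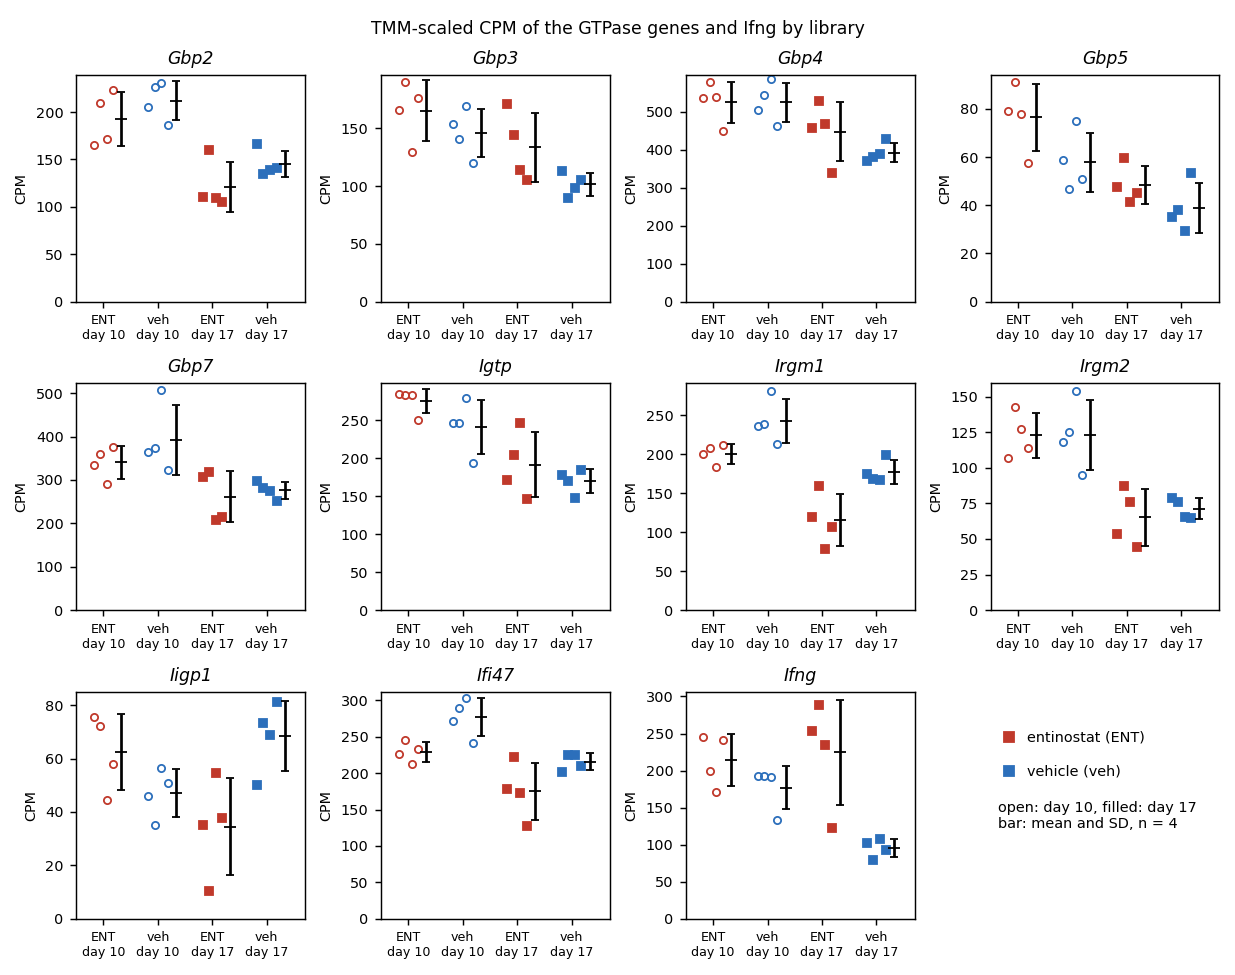
TMM-scaled CPM (linear axis from 0) of the 10 GTPase genes and Ifng in each of the 16 libraries, with entinostat left of vehicle at each day; points are libraries and bars the mean and SD of 4 libraries. At day 17 all Ifng values with entinostat (123 to 288 CPM) lie above all with vehicle (79.4 to 107), while the Irgm1 values with entinostat (78.0 to 159) all lie below those with vehicle (167 to 199).

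At day 10, after 3 days of entinostat, no GTPase gene passed the test, and Ifng did not pass it either. Ifng read 245, 199, 171 and 241 CPM with entinostat, against 192, 192, 191 and 133 CPM with vehicle. The groups overlapped, and the log2 fold change was 0.27 ± 0.20 (SE; edgeR quasi-likelihood test, adjusted p = 0.335). Of the 10 GTPase genes 0 were called higher and 0 lower, while 7.63% of all tested genes were called higher and 6.93% lower. At an unadjusted p under 0.05 the counts were 0 higher and 1 lower (Ifi47). DESeq2 called none, and limma-voom with sample quality weights called 1 higher and 2 lower. With the replicate number as a block 1561 of all tested genes were called, and with the block kept within each day 1160, against 2534 without a block; each called 0 of the 10. Log2 fold changes ran from -0.27 for Irgm1 and Ifi47 to 0.41 for Iigp1, with a median of 0.00, beside a median of 0.06 over all tested genes and -0.17 over the 9772 tested genes of at least 16 CPM on average.

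Irgm1, a regulator of the IRG family that in mice limits interferon-dependent death of expanding T cells, read 200, 208, 183 and 212 CPM with entinostat at day 10. With vehicle it read 236, 239, 281 and 213 CPM. All entinostat values lay below all vehicle values, by a narrow margin between 212 and 213, and the log2 fold change of -0.27 ± 0.14 had an adjusted p of 0.189 (edgeR). Irgm1 was the only GTPase gene of the 10 without overlap at day 10. Of all tested genes 12.4% were likewise lower in every library, and 21.3% of those of at least 16 CPM.

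Ifi47, an effector IRG, averaged 229 ± 13.5 CPM with entinostat and 277 ± 26.6 CPM with vehicle at day 10 (SD, n = 4 each), with ranges that overlapped. Gbp5, known for promoting assembly of the NLRP3 inflammasome, averaged 76.4 ± 13.8 CPM with entinostat and 57.8 ± 12.3 CPM with vehicle, and its log2 fold change of 0.40 had a 95% interval from -0.02 to 0.82. Iigp1, an effector IRG that loads onto pathogen vacuoles, averaged 62.5 ± 14.3 CPM with entinostat and 47.0 ± 9.04 CPM with vehicle, with an interval from -0.24 to 1.06. These intervals are wide, and a missing call at day 10 does not show equal levels.

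At day 17, after 10 days of entinostat, Ifng was higher and 2 GTPase genes, Irgm1 and Iigp1, were lower; the other 8 did not pass the test. Ifng read 253, 288, 234 and 123 CPM with entinostat, against 102, 79.4, 107 and 92.2 CPM with vehicle. Every entinostat library lay above every vehicle library, with replicate 4 the nearest, and the log2 fold change was 1.23 ± 0.20 (edgeR adjusted p = 4.56e-04), a 2.35-fold difference.

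Irgm1 read 119, 159, 78.0 and 107 CPM with entinostat at day 17, against 175, 168, 167 and 199 CPM with vehicle. The groups did not overlap. Of all tested genes 13.6% were likewise lower in every entinostat library, and 21.4% of those of at least 16 CPM. For Irgm1 the wider scatter was among the entinostat libraries. The log2 fold change was -0.57 ± 0.15, with a 95% interval from -0.87 to -0.26 (edgeR adjusted p = 0.0119). The call did not survive omission of entinostat replicate 4 (adjusted p = 0.0606), nor was it made in a fit of the compared groups alone (0.0583). With cyclic loess scaling in limma-voom the value was -0.29 (0.119), also without a call.

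Iigp1 read 35.0, 10.5, 54.7 and 37.7 CPM with entinostat at day 17, against 50.2, 73.3, 68.7 and 81.3 CPM with vehicle. In CPM, replicate 2 of entinostat, with 39 counts, was the lowest of all 16 libraries. Replicate 3, with 33 counts in the shallowest library, overlapped the vehicle range. The log2 fold change was -1.09 ± 0.33 (edgeR adjusted p = 0.0278), with an interval from -1.77 to -0.40. This call was lost under 10 alternatives, at adjusted p-values from 0.0534 to 0.0835, among them the omission of entinostat replicate 1 (0.0615) or 4 (0.0534) or of vehicle replicate 2 (0.058), 3 (0.0605) or 4 (0.064).

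The count of 2 called lower and 0 higher among 10 stood beside 13.0% and 5.29% of all tested genes, and beside 21.9% and 3.26% of those of at least 16 CPM, the range in which all 10 lie. The share of lower calls was therefore near the background. The median log2 fold change of the 10 was -0.11, beside -0.01 over all tested genes and -0.22 over genes of at least 16 CPM. Library size alone moved the median of all tested genes to 0.14 and that of the 10 to 0.04. It moved the share of calls that were higher to 48.2%, against 28.9% with TMM scaling.

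Among the GBP genes at day 17, none passed the test. Gbp3, of the chromosome 3 cluster that mice need for caspase-11 responses to cytosolic bacteria, read 171, 144, 114 and 105 CPM with entinostat, against 113, 89.7, 98.3 and 105 CPM with vehicle. The groups overlapped through entinostat replicate 4, and the log2 fold change was 0.41 ± 0.16 (edgeR adjusted p = 0.0722). Gbp3 was called higher under 7 alternatives, DESeq2 (0.52), limma-voom (0.57) and the omission of entinostat replicate 4 (0.55) among them. Adjusted p-values ran from 0.00536, with cyclic loess scaling in limma-voom, to 0.0296, with limma-voom and sample quality weights.

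Gbp2, a prenylated GBP that docks on pathogen vacuoles, read 110, 160, 109 and 105 CPM with entinostat and 166, 135, 139 and 141 CPM with vehicle at day 17. Entinostat replicate 2 stood within the vehicle range and the other 3 below it. Without that library Gbp2 was called lower, at -0.39 (edgeR adjusted p = 0.0441), against -0.25 with all libraries (0.229 for the adjusted p).

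For the other GBP genes, Gbp4 averaged 447 ± 78.9 CPM with entinostat and 391 ± 25.0 CPM with vehicle, a log2 fold change of 0.19, and it was called higher at 0.34 without entinostat replicate 4 (adjusted p = 0.0471). Gbp5 averaged 48.4 ± 7.80 CPM with entinostat and 38.9 ± 10.4 CPM with vehicle, a log2 fold change of 0.34, and Gbp7, known for helping assembly of the phagocyte NADPH oxidase, 262 ± 59.0 and 276 ± 19.2 CPM (SD, n = 4 each). In none of Gbp4, Gbp5 and Gbp7 were the groups apart.

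Among the IRG genes, Igtp and Irgm2, both regulators of the effector IRGs, had 95% intervals that took in 0. Igtp read 171, 204, 246 and 146 CPM with entinostat at day 17 and 178, 170, 148 and 184 CPM with vehicle, and entinostat values lay on both sides of the vehicle range. Irgm2 read 53.4, 87.2, 76.3 and 44.1 CPM with entinostat and 79.1, 76.0, 65.4 and 64.8 CPM with vehicle, again on both sides. Ifi47 averaged 175 ± 39.0 CPM with entinostat and 215 ± 11.4 CPM with vehicle, at -0.30 ± 0.13 (edgeR adjusted p = 0.116). At day 17 the SD as a percentage of the mean was larger with entinostat than with vehicle in 9 of the 10 genes, at 17.6% to 52.8% with entinostat and 5.30% to 19.2% with vehicle. Gbp5 was the exception, at 16.1% with entinostat and 26.7% with vehicle.

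**Figure D2:**
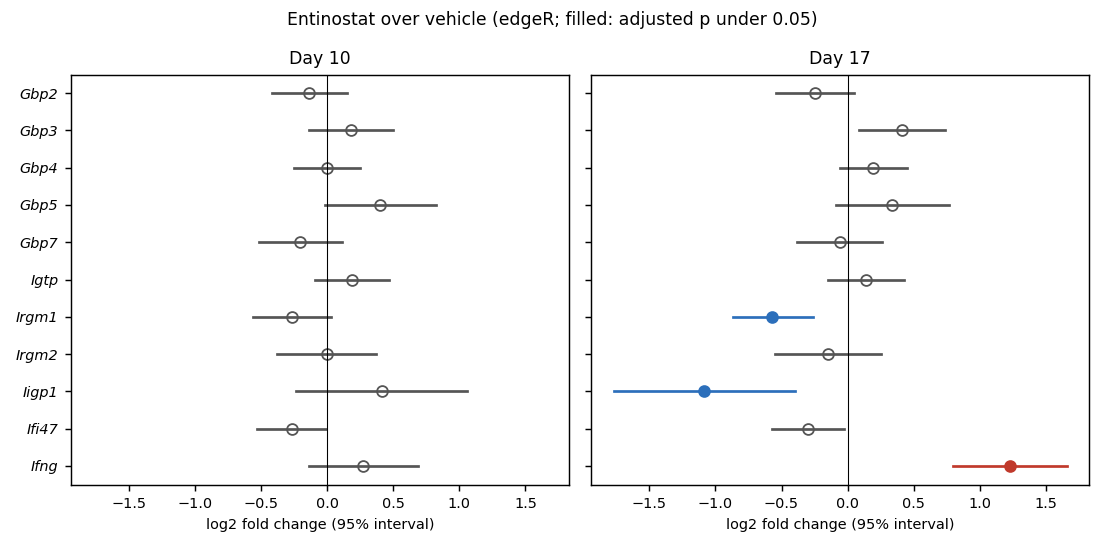
Log2 fold change of entinostat over vehicle at day 10 and day 17 for the 10 GTPase genes and Ifng, with 95% intervals from edgeR; filled points have an adjusted p under 0.05. At day 10 no point is filled, and at day 17 the filled points are Irgm1 (-0.57), Iigp1 (-1.09) and Ifng (1.23).

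The drug effect at day 17 minus that at day 10 was tested as an interaction. For Iigp1 it was -1.50 ± 0.45 (edgeR adjusted p = 0.144) and for Ifng 0.96 ± 0.28 (adjusted p = 0.139). No GTPase gene was called, at 0 higher and 0 lower of 10, beside 0.218% and 0.253% of all tested genes. At an unadjusted p under 0.05 only Iigp1 stood out, DESeq2 and limma-voom called none, and the difference for Irgm1 was -0.30 ± 0.20. A change of these genes' drug effect between days was therefore not shown. For Ifng the interaction passed with DESeq2 (1.02, adjusted p = 0.0121) and without entinostat day 17 replicate 4 (1.17, adjusted p = 0.0243), among the alternatives tried.

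Each GTPase gene was next expressed per 100 Ifng counts of the same library, a ratio in which the scaling factor of a library cancels. Highly expressed genes did not scale with library totals, so the ratio may still depend on depth, which was not tested. At day 17 Irgm1 stood at 47.1, 55.4, 33.3 and 86.8 per 100 Ifng counts with entinostat, against 171, 212, 156 and 215 with vehicle. Ifi47 stood at 70.5, 77.2, 73.8 and 103 with entinostat, against 197, 283, 211 and 228 with vehicle, and Gbp4 at 181, 183, 199 and 275 with entinostat, against 362, 478, 363 and 463 with vehicle. In each of these 3 genes the highest ratio with entinostat was that of replicate 4, the library with the lowest Ifng CPM of its group.

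With entinostat at day 17 the mean ratio as a percentage of the vehicle mean was lowest for Iigp1 at 24.3% and Irgm1 at 29.5%. It was 35.3% for Ifi47, 37.6% for Gbp2, 39.4% for Irgm2, 42.2% for Gbp7, 49.8% for Igtp, 50.3% for Gbp4, 56.1% for Gbp5 and 58.8% for Gbp3. In 9 of the 10 genes, all but Gbp5, every entinostat ratio lay below every vehicle ratio. The same held for 45.7% of all tested genes and 73.2% of those of at least 16 CPM. The denominator was itself 2.35-fold higher with entinostat, and it enters the ratio of every gene, so a lower ratio here is not a lower level of the GTPase gene.

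At day 10 the ratios differed less. In 4 genes (Gbp2, Gbp7, Irgm1 and Ifi47) every entinostat ratio lay below every vehicle ratio, beside 19.8% of all tested genes and 33.7% of those of at least 16 CPM. Irgm1 averaged 95.5 ± 12.5 per 100 Ifng counts with entinostat and 138 ± 17.8 with vehicle, and Ifi47 109 ± 17.2 and 158 ± 16.8 (SD, n = 4 each). Means with entinostat ran from 69.0% (Irgm1 and Ifi47) to 111% (Gbp5) of those with vehicle, and 6 genes overlapped.

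**Figure D3:**
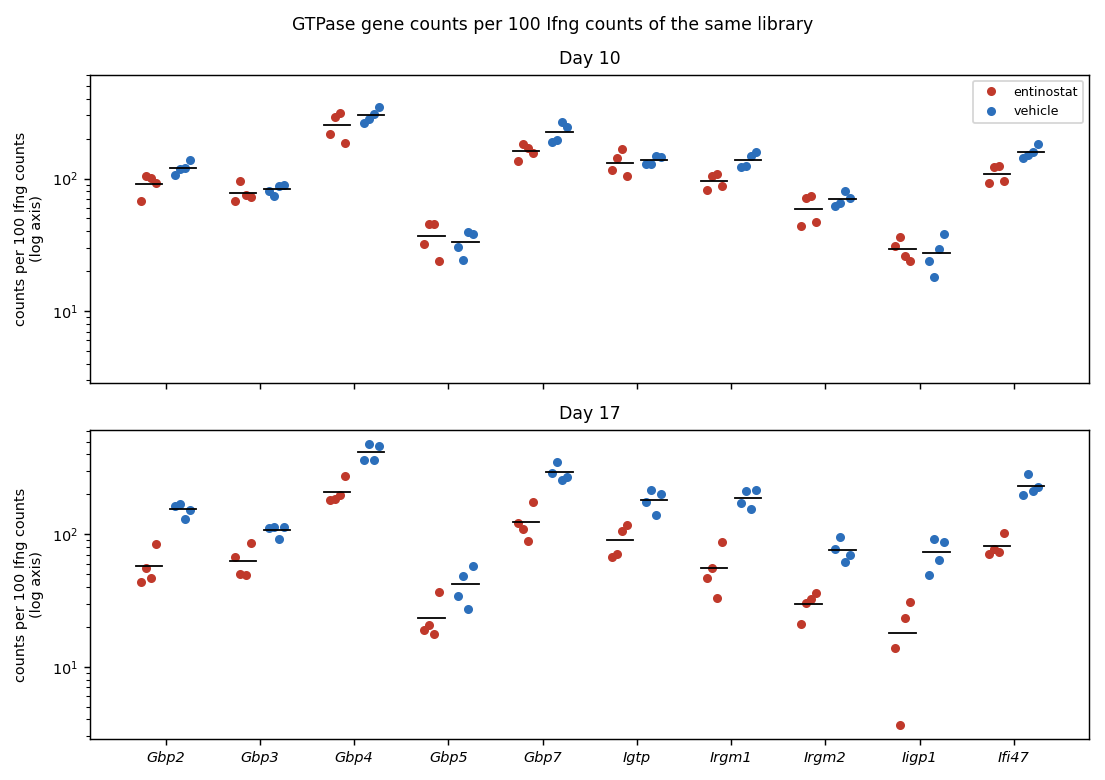
Counts of each GTPase gene per 100 Ifng counts of the same library (log axis), at day 10 and day 17, with entinostat left of vehicle; points are libraries and lines the means of 4. At day 17 the libraries with entinostat lie wholly below those with vehicle for 9 genes, and for Gbp5 they overlap (17.7 to 36.6 with entinostat, 27.2 to 58.0 with vehicle).

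Between day 17 and day 10 the 10 GTPase genes had a median log2 change of -0.59 with entinostat and -0.51 with vehicle. With entinostat, 5 of 10 were called lower (Gbp2, Gbp5, Igtp, Irgm1 and Irgm2) and 0 higher, beside 10.5% and 3.26% of all tested genes and 18.2% and 3.39% of those of at least 16 CPM. With vehicle, 4 of 10 were called lower (Gbp2, Gbp4, Igtp and Irgm2) and 0 higher, beside 3.63% and 1.89% of all tested genes and 6.40% and 1.26% of those of at least 16 CPM. The vehicle count turned on single vehicle libraries. Of the day 10 libraries, leaving out replicate 1 gave 2 lower, replicate 2 gave 1, replicate 3 gave 0 and replicate 4 gave 8. Leaving out replicate 2 or replicate 3 of day 17 gave 1 each, and cyclic loess scaling gave 0. The median change of all tested genes was 0.03 with entinostat and 0.13 with vehicle, and that of genes of at least 16 CPM was -0.16 and -0.10. With entinostat all 10 values lay below 0 and with vehicle 9 of 10, and these counts were the same with RLE, library size and cyclic loess scaling. Both comparisons are between days, and anything that differed between collection days cannot be told apart from time.

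Irgm2, whose product sits at the Golgi apparatus and holds the effector IRGs in check, moved most among the called genes. It averaged 65.3 ± 20.0 CPM at day 17 and 123 ± 15.6 CPM at day 10 with entinostat, or -0.93 ± 0.19 on the log2 scale (edgeR adjusted p = 0.00289). With vehicle it averaged 71.3 ± 7.31 CPM at day 17 and 123 ± 24.5 CPM at day 10, at -0.78 ± 0.18 (adjusted p = 0.0211). That call was lost without replicate 3 of day 10 (0.0926) and with cyclic loess scaling in limma-voom (0.0781). No day 17 library reached a day 10 library of the same treatment.

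Gbp2 and Igtp were likewise called lower under both treatments. Gbp2 changed by -0.65 ± 0.14 with entinostat (edgeR adjusted p = 0.00429) and by -0.54 ± 0.14 with vehicle (0.0284). Igtp, which resides at the endoplasmic reticulum, changed by -0.55 ± 0.14 with entinostat (0.0116) and by -0.51 ± 0.13 with vehicle (0.0366). The vehicle calls were lost under 6 alternatives for Gbp2 and 9 for Igtp, and the entinostat call of Igtp was lost with a minimum count of 50 (0.0516). Neither overlapped between days under either treatment. In CPM, 4 genes with entinostat (Gbp2, Igtp, Irgm1 and Irgm2) were lower in every day 17 library than in any day 10 library. With vehicle it was 8 (the 10 less Gbp5 and Iigp1). Of all tested genes the shares were 12.5% and 8.77%, and of those of at least 16 CPM 20.6% and 15.2%.

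Irgm1 averaged 116 ± 33.8 CPM at day 17 and 201 ± 12.8 CPM at day 10 with entinostat, at -0.75 ± 0.15 (edgeR adjusted p = 0.00203). With vehicle it averaged 177 ± 14.8 and 242 ± 28.3 CPM, at -0.45 ± 0.14 (adjusted p = 0.0642), and 5 alternatives called it. Gbp5 was called with entinostat at -0.64 ± 0.20 (0.0452), a call lost under 13 alternatives, and Gbp4 with vehicle at -0.42 ± 0.12 (0.0483), a call lost under 12.

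Among the 10, Iigp1 was the exception. With vehicle its levels were 50.2, 73.3, 68.7 and 81.3 CPM at day 17 and 46.1, 35.0, 56.3 and 50.7 CPM at day 10, at 0.54 ± 0.31 (edgeR adjusted p = 0.274). With entinostat they were 35.0, 10.5, 54.7 and 37.7 CPM at day 17 and 75.5, 72.3, 44.4 and 57.9 CPM at day 10, at -0.96 ± 0.33 (adjusted p = 0.0593). Days overlapped under both treatments, and the opposite signs are the interaction of -1.50 given above, which did not pass.

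Ifng was called lower at day 17 than at day 10 with vehicle and did not pass the test with entinostat; the difference between these changes is the interaction of 0.96 given above, which did not pass (adjusted p = 0.139). With vehicle it averaged 95.2 ± 12.2 CPM at day 17 and 177 ± 29.1 CPM at day 10, at -0.89 ± 0.20 (edgeR adjusted p = 0.0183). That call for Ifng was lost on omission of replicate 3 at day 10 (0.0682) or replicate 2 at day 17 (0.0559). It was also lost with cyclic loess scaling in limma-voom (0.118). With entinostat it averaged 224 ± 71.0 and 214 ± 35.6 CPM, at 0.07 ± 0.20 (adjusted p = 0.881). Under vehicle Ifng and 9 of the 10 GTPase genes had negative values, and under entinostat all 10 GTPase genes did and Ifng did not. Per 100 Ifng counts, Irgm2 with entinostat was lower in every day 17 library. Its mean was 30.0 ± 6.32 at day 17 and 59.3 ± 16 at day 10. The same held for 2.32% of all tested genes and 3.19% of those of at least 16 CPM. With vehicle 4 genes (Gbp3, Gbp4, Iigp1 and Ifi47) had higher ratios in every day 17 library. So did 45.7% of all tested genes and 61.7% of those of at least 16 CPM.

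**Figure D4:**
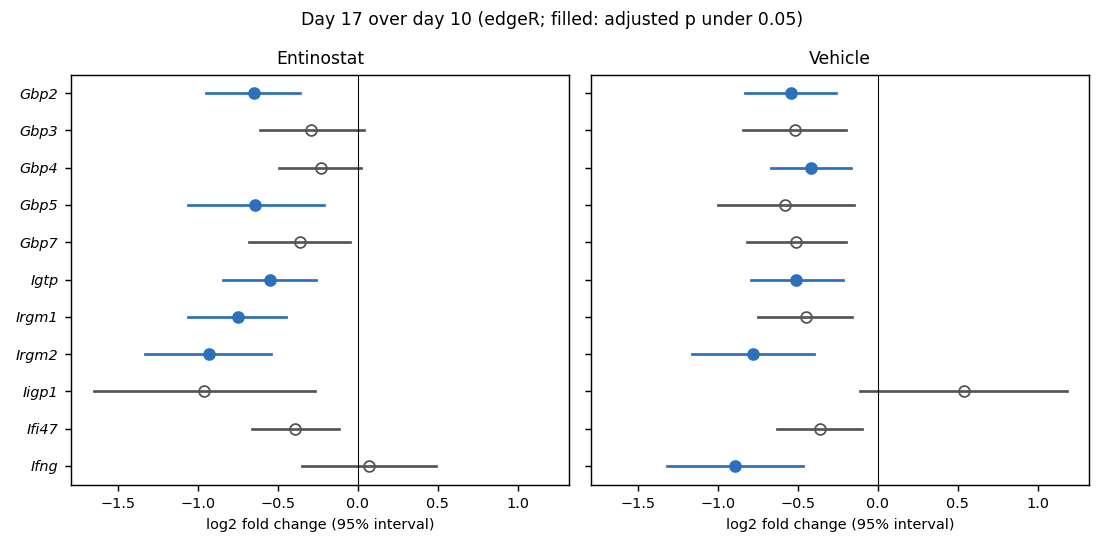
Log2 fold change of day 17 over day 10 under entinostat and under vehicle for the 10 GTPase genes and Ifng, with 95% intervals from edgeR; filled points have an adjusted p under 0.05. Under entinostat all 10 GTPase genes lie below 0 and Ifng is at 0.07; under vehicle Ifng (-0.89) and 9 GTPase genes lie below 0, with Iigp1 at 0.54.

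Across the 16 libraries most of the 10 genes varied together, as a description over libraries that share groups and scaling. The log2 CPM of a gene and the mean of the other 9 had a Pearson correlation of 0.91 for Irgm2, 0.86 for Gbp2, 0.81 for Gbp7, 0.79 for Igtp and Ifi47, 0.76 for Irgm1 and 0.75 for Gbp4. It was 0.65 for Gbp5 and 0.61 for Gbp3, and 0.04 for Iigp1. Of 9487 other named genes of at least 16 CPM, those closest to the mean course of the 10 were Osbpl9 (0.95), Tcp11l2 (0.94), Isy1, Ipcef1, Gbp9 and Zc3hav1 (0.93 each). Gbp9 is a GBP and Zc3hav1 an interferon-induced antiviral zinc-finger protein. Gbp9 also shares 50-base words with Gbp7, a member of the 10, and the part of shared reads in its likeness was not tested. Ifng ranked 4259 with 0.34. Tcp11l2 fell to 135 ± 12 CPM at day 17, against 290 ± 23.0 CPM at day 10, with entinostat (edgeR log2 fold change -1.11 ± 0.10, adjusted p = 3.76e-06).

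Of 15 other GBP and IRG genes tested, edgeR called 0 at day 10, where 1 was higher and 4 were lower at an unadjusted p under 0.05, DESeq2 called 1 higher and 1 lower, and limma-voom 3 higher and 4 lower. Of all tested genes edgeR called 7.63% higher and 6.93% lower at day 10. At day 17, 1 of the 15 was called higher and 3 lower with entinostat. The shares at day 17 were 5.29% and 13.0% of all tested genes, and 3.26% and 21.9% of those of at least 16 CPM. Gbp10 averaged 135 ± 41.4 CPM with entinostat and 95.6 ± 6.48 CPM with vehicle (0.50 ± 0.17, edgeR adjusted p = 0.0433). Gvin1, a very large interferon-inducible GTPase, averaged 263 ± 95 CPM with entinostat and 470 ± 67.2 CPM with vehicle (-0.81 ± 0.18, adjusted p = 0.00402). Gbp9 at -0.35 ± 0.12 (0.0436) and the predicted IRG gene 9930111J21Rik1 at -0.71 ± 0.18 (0.0116) were the others. From day 10 to day 17, 8 of the 15 were called lower with entinostat and 4 with vehicle, and 0 higher. Of all tested genes 10.5% were lower with entinostat and 3.63% with vehicle, and of those of at least 16 CPM 18.2% and 6.40%. Tgtp1, an effector IRG, changed by -0.78 ± 0.10 with entinostat (7.86e-05) and by -0.40 ± 0.10 with vehicle (0.0273). Gbp2b, Gbp6, Gbp8, Gbp9, Gbp11 and Gm4951 share 50-base words with members of the 10, so their counts may not be wholly separate.

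Of 17 tested genes of the interferon gamma pathway itself, 0 were higher and 4 lower at day 10, and 1 was higher (Ifng) and 6 lower at day 17. Of all tested genes 7.63% were higher and 6.93% lower at day 10, and 5.29% and 13.0% at day 17. Of those of at least 16 CPM, 11.9% were lower at day 10 and 21.9% at day 17. The list's medians were -0.12 and -0.20, beside -0.17 and -0.22 over genes of at least 16 CPM. Of the receptor chains, Ifngr2 averaged 18.6 ± 1.48 CPM with entinostat and 47.5 ± 9.38 CPM with vehicle at day 17 (-1.34 ± 0.21, edgeR adjusted p = 3.23e-04), while Ifngr1 averaged 540 ± 144 and 472 ± 52.7 CPM (0.18 ± 0.15, adjusted p = 0.424). Jak2, the kinase held by Ifngr2, was lower at both days, by -0.41 ± 0.13 at day 10 (0.0476) and -0.63 ± 0.14 at day 17 (0.0044).

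Among the factors that act on interferon response elements, Irf1 averaged 356 ± 56.9 CPM with entinostat and 326 ± 16.7 CPM with vehicle at day 17 (0.11 ± 0.11, edgeR adjusted p = 0.477). Stat2 and Irf9, parts of the complex formed after type I interferon, were lower: Stat2 at 96.8 ± 27.0 CPM with entinostat and 224 ± 20.5 CPM with vehicle (-1.17 ± 0.16, adjusted p = 8.73e-05). Irf9 averaged 103 ± 26.6 CPM with entinostat and 170 ± 10.2 CPM with vehicle (-0.69 ± 0.14, adjusted p = 0.00182). At day 10 Stat2 stood at -0.55 ± 0.16 (0.0292) and Irf9 at -0.41 ± 0.13 (0.0429). Irf8, also high in plasmacytoid dendritic cells, stood at -1.18 ± 0.18 at day 10 (6.81e-04) and -0.59 ± 0.17 at day 17 (0.0252), and Irf2 was lower at day 17.

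With time, Irf1 was lower under both treatments, by -0.37 ± 0.11 with entinostat (edgeR adjusted p = 0.0277) and -0.45 ± 0.11 with vehicle (0.0219). Socs3, a feedback inhibitor, was also lower under both, by -0.74 ± 0.11 (2.68e-04) with entinostat and -0.39 ± 0.11 (0.0453) with vehicle. In this list 9 were lower and 1 (Irf8) higher with entinostat, and 4 lower and 0 higher with vehicle. Of all tested genes 10.5% were lower and 3.26% higher with entinostat, and 3.63% and 1.89% with vehicle. Of those of at least 16 CPM, 18.2% were lower with entinostat and 6.40% with vehicle.

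Of 25 other interferon gamma target genes tested, 0 were higher and 6 lower with entinostat at day 10, and 1 was higher and 9 lower at day 17. Of all tested genes 6.93% were lower at day 10 and 13.0% at day 17, and of those of at least 16 CPM 11.9% and 21.9%. Cxcl10, a chemokine for Cxcr3-bearing T cells, averaged 5.91 ± 2.80 CPM with entinostat and 30.0 ± 4.57 CPM with vehicle at day 17 (-2.52 ± 0.48, edgeR adjusted p = 0.00135). Xaf1, a pro-apoptotic factor, stood at -1.43 ± 0.22 (1.90e-04), Tapbpl, a peptide editor of MHC class I loading, at -0.66 ± 0.11 (3.71e-04), and Lgals3bp at -0.54 ± 0.12 (0.00354). Psmb9, an immunoproteasome subunit, was the 1 gene called higher by edgeR (0.33 ± 0.11, adjusted p = 0.0409). It averaged 186 ± 31.8 CPM with entinostat and 146 ± 6.59 CPM with vehicle. At an unadjusted p under 0.05, 5 were higher at day 17 (Psmb9, Ido1, B2m, Psmb8 and Cxcl9) and 9 lower, against 0 and 11 at day 10. At day 17 DESeq2 called 3 higher and 7 lower, and limma-voom with sample quality weights 2 higher and 9 lower. The median of the list was -0.17 at day 10 and -0.09 at day 17, beside -0.17 and -0.22 over genes of at least 16 CPM.

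Genes typical of type I interferon, many of them antiviral, were mostly lower with entinostat. Of 22 tested, 17 were lower at day 10 and 20 at day 17, and 0 were higher. Of all tested genes 6.93% were lower at day 10 and 13.0% at day 17, and of those of at least 16 CPM 11.9% and 21.9%. The list's medians were -1.09 and -1.61, beside 0.06 and -0.01 over all tested genes and -0.17 and -0.22 over those of at least 16 CPM. Ifit1 averaged 19.6 ± 2.12 CPM with entinostat and 110 ± 8.62 CPM with vehicle at day 17 (-2.44 ± 0.20, edgeR adjusted p = 5.24e-07). Ifit3 averaged 9.95 ± 3.44 CPM with entinostat and 74.2 ± 10.8 CPM with vehicle (-2.77 ± 0.24, adjusted p = 9.48e-07), with reads that a near-identical copy may share, and Irf7 70.4 ± 15.9 and 235 ± 19.8 CPM (-1.71 ± 0.16, adjusted p = 1.75e-06). Bst2, also a plasmacytoid dendritic cell marker, stood at -1.05 ± 0.12 at day 10 (7.00e-05) and -1.62 ± 0.12 at day 17 (2.94e-07). Between days 13 of the 22 were lower with entinostat and 4 with vehicle. The shares were 10.5% and 3.63% of all tested genes, and 18.2% and 6.40% of those of at least 16 CPM.

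The plasmacytoid dendritic cell markers given above were also mostly lower with entinostat at each day, and their part in the interferon calls was not tested. Between days with entinostat their summed level had a median of 669 CPM at day 10 and 709 CPM at day 17. The lists overlap: Bst2 and Irf8 are plasmacytoid markers and Ciita a conventional dendritic cell marker, and each is also in an interferon list. Markers of conventional dendritic cells were lower for 3 of 9 at day 10 and 5 of 9 at day 17. Their summed level was 275 to 435 CPM with entinostat and 335 to 938 with vehicle at day 10, and 333 to 356 with entinostat and 827 to 1401 with vehicle at day 17. Over time under vehicle, where 4 GTPase genes were lower, 0 of the 10 plasmacytoid and 0 of the 9 conventional dendritic cell markers were called, and under entinostat 1 and 0 were higher and 5 and 0 lower. Under vehicle 3 of 5 fibroblast markers were called higher, with a median summed level of 368 CPM at day 17 and 15.0 CPM at day 10; their part in the lower GTPase calls was not tested.

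The other lists held few calls. For comparison, 6.93% of all tested genes were lower at day 10 and 13.0% at day 17. Of those of at least 16 CPM it was 11.9% and 21.9%. Of 14 autophagy-related genes, whose lipidation machinery guides GBPs and IRGs to membranes, 2 were lower at day 10 (Gabarap at -0.31 ± 0.10, Becn1 at -0.33 ± 0.11) and 2 at day 17 (Atg3 at -0.42 ± 0.14, Atg12 at -0.41 ± 0.14), with edgeR adjusted p-values of 0.0459, 0.0476, 0.0376 and 0.0471. Of 8 inflammasome genes, Gsdmd, the pore-forming gasdermin, was lower at both days, at 105 ± 8.24 CPM with entinostat and 139 ± 5.76 CPM with vehicle at day 10 and at 83.4 ± 19.0 and 122 ± 10.4 CPM at day 17 (adjusted p = 0.0409 and 0.00799). Il1b was lower at day 17, at 15.8 ± 1.42 CPM with entinostat and 92.5 ± 56.8 CPM with vehicle (adjusted p = 0.049). Il1b is also a transcript of myeloid cells, and 11 markers of monocytes, macrophages or neutrophils summed to a median of 107 CPM with entinostat and 449 CPM with vehicle at day 17, and 108 and 378 CPM at day 10. Of the 8 tested, 0 were called higher and 2 lower at day 17, and 4 higher and 1 lower at day 10. The 5 markers of natural killer cells, which also make interferon gamma, were Ncr1, Klrb1c, Klra8, Eomes and Tyrobp. They summed to a median of 99.9 CPM with entinostat and 232 CPM with vehicle at day 17. Of 4 tested, 1 was called lower, so the sum does not measure how many of these cells were present. The part of these cells in the results was not tested. For the interaction 0 genes of any of these 6 lists were called by edgeR; at an unadjusted p under 0.05, 3 were higher and 3 lower among interferon gamma signalling genes, 0 higher and 7 lower among the type I list, 0 and 2 among the other GBP and IRG genes, 2 and 2 among the other target genes, 0 and 0 among the autophagy genes and 0 and 1 among the inflammasome genes. limma-voom called none and DESeq2 called 1 higher and 1 lower in the signalling list, 1 lower in the type I list, 1 lower among the other GBP and IRG genes and 1 higher among the other target genes.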

How the data were processed

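Per the labels' protocols, SMART-seq v4 cDNA was tagmented with Nextera XT; neither strand nor molecule is marked. STAR and mm10 are named in the submitters' processing notes; how reads were counted, and whether duplicates were removed, is not given in the sources used here. The deposited values were whole-number read counts per gene, not scaled. CPM were computed here with TMM factors. In R 4.3.3, edgeR 4.0.16 tested 17414 genes (filterByExpr, minimum count 10) by its quasi-likelihood test, 2-sided, over all 16 libraries with 12 residual degrees of freedom and Benjamini-Hochberg adjustment at 0.05 over all tested genes. Every adjusted p is from this test unless another tool or cyclic loess scaling is named. Cyclic loess scaling was run in limma-voom without sample quality weights, so its results differ from the main ones in the test as well as the scaling. Elsewhere limma-voom means the fit with sample quality weights. Ratios to Ifng used counts. DESeq2 1.42.0, limma-voom (limma 3.58.1), scalings, filters, blocks and omitted libraries were alternatives. Alike genes were ranked by Pearson correlation of log2 CPM (prior count 2). Named genes: all 10, Ifng, up to 4 of smallest p per list and drug comparison, and the 6 most alike; others were named to show a role or a count. The genes and lists were chosen with earlier results of these data known.

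Counting error was largest in the shallowest library, and precision grows with total counts. Since the labels name no animals, p-values reflect only variation among these libraries, part of which may be technical. Within a group every pair differed beyond sampling noise, with a chi-square of at least 2.96 per degree of freedom. Equal replicate numbers were checked for pairing by correlating deviations from group means. Between treatments at day 10 these were 0.259, 0.26, 0.24 and 0.27 over the 9772 genes of at least 16 CPM, and 0.18, 0.033, 0.114 and 0.057 over all tested genes. In no other comparison were all 4 over 0.1. No label states a pairing, and whether equal numbers are pairs remains unknown. The main test was unpaired at both days, and the replicate number entered only as a block in the alternatives. The test was tried on simulated counts. Positions are GRCm38.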

Additional observations from a re-analysis of the deposited data

Results flagged for a closer look

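In groups of 4 libraries, a library was marked when its gap to the nearest other passed Dixon's 95% critical value as a share of the group's range. Of 84 sets of 4 values for the 10 genes and Ifng, 5 were marked, and chance marks about 1 in 20. Gbp2 read 160 CPM in entinostat day 17 replicate 2, above the others at 105 to 110. Igtp read 251 CPM in entinostat day 10 replicate 4, below the others at 283 to 285. Ifng read 133 CPM in vehicle day 10 replicate 4, below the others at 191 to 192. Per 100 Ifng counts, Gbp3 stood at 92.0 in vehicle day 17 replicate 3, below the others at 111 to 114, and Gbp5 at 36.6 in entinostat day 17 replicate 4, above the others at 17.7 to 20.7. No library was marked in more than 1 of these sets.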

How the results depend on the processing

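For single genes, 967 alternative values kept side and direction, 51 gained a call, 59 lost one, 56 uncalled values changed sign (-0.11 to 0.24) and no call reversed. At day 10 the main counts were 0 lower and 0 higher of 10; limma-voom gave 2 lower and 1 higher, and cyclic loess scaling, chosen after seeing the data, 1 higher. At day 17 the main counts were 2 lower and 0 higher. RLE factors, library size alone and a minimum count of 50 each gave 1 lower and 1 higher, the compared groups alone 0 lower, DESeq2 and limma-voom 1 higher, and cyclic loess 0 lower and 2 higher; leaving out libraries gave 0 to 4 lower and 0 to 2 higher. With vehicle between days the main count of 4 lower became 1 with library size alone, 7 with DESeq2, 8 with limma-voom, 2 at a minimum count of 50 and 0 with cyclic loess. Among vehicle libraries, omitting replicate 3 of day 10 gave 0, replicate 4 of day 10 gave 8, replicate 1 of day 10 gave 2, and replicate 2 of day 10 or replicates 2 or 3 of day 17 gave 1. Omitting the shallowest entinostat library gave 7. With entinostat between days the main count of 5 lower became 8 with limma-voom and 3 at a minimum count of 50, and 4 to 7 without a library. The cause was not tested.

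Over all genes, calls ran from 770 to 6746 at day 10 (main 2534), 1647 to 4899 at day 17 (3190), 212 to 2804 with vehicle between days (961), 1748 to 3934 with entinostat between days (2393) and 14 to 563 for the interaction (82). Library size alone moved the median of all tested genes by over 0.1 (to 0.22, 0.14, 0.27 and 0.15 in the 4 comparisons) and the share of higher calls to 76.0% at day 10 (52.4% with TMM), 59.4% with vehicle between days (34.2%) and 43.3% with entinostat between days (23.7%). With a replicate block the counts of the 10 genes stayed at 0 called at day 10, 2 lower at day 17, and 4 lower with vehicle and 5 with entinostat between days; the block lost Gbp5 (adjusted p = 0.0771) and gained Ifi47 (0.032) with entinostat between days, and over all genes it gave 1561 calls at day 10, or 1160 when kept within each day. In the shallowest library Gbp5 had 25 counts and Iigp1 33, and such low readings limit these genes most.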
